A study of Homo sapiens with 15 samples.

Results

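AKAP12, GEM and 8 further genes of the cAMP pathway were followed in MG-63 cells, a human osteosarcoma line with features of osteoblasts, on coated and uncoated titanium. AKAP12 and GEM were selected on their change after 24 h, which is therefore given as a description with no test. PDE4A, PDE4B, PDE4D, CREM, CREB1, RGS2, SIK1 and PRKACB joined them as genes that end or carry the cAMP signal or are induced by it. Of these 10 genes, 9 had a transcript cluster (the set of probes of 1 gene) with their symbol among the 17687 genes named on the arrays, and CREM was not analysed here. Each of the 9 genes had a single transcript cluster. The cells were cultivated in DMEM with fetal calf serum on uncoated titanium (Ti-Ref) or on titanium carrying an amine-rich polymer film of poly(ethyleneimine) with trimethoxysilylpropyl groups (Ti-TMS-PEI). RNA was hybridised to Clariom S arrays after 4 h (4 arrays on each surface, replicates A to D) and after 24 h (3 on Ti-Ref, replicates A to C, and 4 on Ti-TMS-PEI, replicates A to D). The comparison asks how the coating changed gene expression within each time.

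Cyclic AMP is made by adenylyl cyclases when hormones such as parathyroid hormone or prostaglandin E bind receptors coupled to the G protein Gs. It frees the catalytic subunits of protein kinase A (PKA), which phosphorylate the transcription factor CREB and so switch on genes with cAMP response elements (CREs) in their promoters. Phosphodiesterases break cAMP down, and A-kinase anchoring proteins (AKAPs) hold PKA at chosen places in the cell. In osteoblasts this pathway carries the response to parathyroid hormone.

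All values below are log2 signals, and differences are Ti-TMS-PEI minus Ti-Ref, so that 1 log2 unit is a doubling of signal. The array medians lay between 5.79 and 5.86 at 4 h and between 6.70 and 6.79 at 24 h, and signals were therefore compared only within a time. The median SD between replicates over all transcript clusters was 0.22 at 4 h and 0.18 at 24 h, and the number of arrays limits the precision. A gene was called when its fold change was over 1.5 and both its limma p and its p after Benjamini-Hochberg adjustment over all 21448 transcript clusters were under 0.05. Of all transcript clusters, 0.0326% were called higher and 0.00932% lower on Ti-TMS-PEI at 4 h, and 3.46% higher and 2.69% lower at 24 h. The split at 24 h was 742 higher and 577 lower, and it turned to 596 higher and 775 lower when each array was centred on its median. No array stood far from its group: the median absolute difference of an array from the mean of the others in its group lay between 0.13 and 0.18 for all 15 arrays. The collagens COL1A1 and COL1A2 and SPARC, made by osteoblasts, had signals of 14.59 or more in every array, whereas the osteoblast markers SP7 and IBSP lay below the lower quartile of the array in every group. Markers of other cell types moved with the coating at 24 h, 1 in each of 3 lists: CD68 of the 7 blood cell markers measured (1.22), CDH5 of the 5 endothelial markers (0.77) and KRT18 of the 5 epithelial markers (0.66). PTPRC, a general marker of white blood cells, went the other way without a call (-0.58, adjusted p = 0.051), at 5.72 to 6.06 on Ti-Ref and 5.07 to 5.65 on Ti-TMS-PEI. The summed signal of the blood list, on the log2 scale, was 10.82 to 11.11 on Ti-Ref and 11.92 to 12.20 on Ti-TMS-PEI, close to the level of CD68 alone (10.46 to 10.86 and 11.77 to 12.05). For the endothelial list it was 8.35 to 8.59 and 8.80 to 9.24. For the epithelial list it was 10.70 to 10.85 and 11.23 to 11.52, close to KRT18 alone (10.65 to 10.79 and 11.19 to 11.49). Of the other epithelial markers, CDH1 (-0.39), KRT5 (-0.18) and EPCAM (-0.14) were lower on Ti-TMS-PEI and KRT14 (0.06) was not, all without a call. The median difference at 24 h was 0.06 for the blood, 0.14 for the endothelial and -0.14 for the epithelial list. At 24 h LYZ, KDR, PECAM1 and KRT14 stayed below the lower quartile of the arrays on both surfaces, whereas PTPRC, CDH5 (7.54 to 8.91), VWF (4.84 to 5.78) and TEK (5.32 to 6.40) lay above it, and the part of these markers in the results that follow was not tested. The cultures were of the MG-63 line only. In their RNA, a different share of MG-63 cells making a transcript and a different amount of it per cell cannot be told apart.

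AKAP12, a scaffold that binds PKA and protein kinase C and is also called gravin, had the second largest difference of all transcript clusters at 24 h. On Ti-Ref its signals were 9.03, 8.42 and 9.15 in replicates A, B and C. On Ti-TMS-PEI they were 13.98, 13.59, 12.11 and 13.06 in replicates A, B, C and D. The lowest coated array, replicate C, still lay 2.96 above the highest uncoated one. The means were 13.18 ± 0.81 (SD, n = 4) and 8.87 ± 0.39 (SD, n = 3), a difference of 4.32 with a standard error of 0.39, or 19.95-fold. Leaving out each array in turn gave 4.05 to 4.68. By size of the difference at 24 h, only MMP1, a collagenase, stood above it (4.72), and PTGS2, the inducible cyclooxygenase of prostaglandin synthesis, came next (3.51).

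After 4 h, a contrast that did not choose AKAP12, the surfaces were not told apart. Signals were 6.42, 7.11, 7.07 and 7.13 on Ti-Ref and 6.97, 6.73, 7.43 and 7.59 on Ti-TMS-PEI, and the arrays overlapped. The difference was 0.25 (95% interval -0.25 to 0.75, adjusted p = 0.76 by limma). The interval leaves room for a rise of up to 0.75, far below the difference seen at 24 h. The effect at 24 h exceeded that at 4 h by 4.07 (95% interval 3.05 to 5.09), given without a test for the same reason as above.

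The promoter windows of 8 of the 9 measured members were searched for CRE motifs because these genes are grouped by their link to cAMP. RefSeq windows of 250 bases before to 50 bases after each annotated start (GRCh38.p14) were read on both strands for the palindrome TGACGTCA and for its first 5 letters, called the core here. Where the core lies on the other strand, the printed strand shows its reverse complement, the last 5 letters of the palindrome, so every palindrome also contains the core on both strands. GEM was not searched. Of 35116 windows of this length, 1.85% held TGACGTCA and 24.6% held the core. For AKAP12, none of the 3 windows held either motif. The 100 bases before each AKAP12 start are shown because this gene changed most, and nothing is in capitals since no motif was found. They lie on the plus strand at chr6:151239867-151239966, chr6:151325431-151325530 and chr6:151341606-151341705.
AKAP12 start 1: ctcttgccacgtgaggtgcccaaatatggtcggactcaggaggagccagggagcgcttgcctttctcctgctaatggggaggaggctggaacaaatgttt
AKAP12 start 2: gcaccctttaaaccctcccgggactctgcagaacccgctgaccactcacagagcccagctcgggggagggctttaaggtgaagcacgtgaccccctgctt
AKAP12 start 3: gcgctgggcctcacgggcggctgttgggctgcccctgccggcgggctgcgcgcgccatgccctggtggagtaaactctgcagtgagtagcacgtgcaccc
A window without a match says only that these letters were not found there. A core in a window is common, since 24.6% of all windows held it. Whether members held it more often than other genes was not tested.

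GEM, a small GTP-binding protein of the RGK family that inhibits voltage-gated calcium channels, was the other gene chosen on the 24 h contrast. Its signals at 24 h were 5.22, 4.46 and 5.13 on Ti-Ref and 7.59, 7.71, 7.37 and 7.47 on Ti-TMS-PEI. Replicate B of Ti-Ref lay just above the lower quartile of its array (4.42). The coated arrays lay within 0.34 of each other and at least 2.15 above every uncoated array. The difference was 2.60 with a standard error of 0.18 (6.06-fold, 2.36 to 2.74 without 1 array), which placed GEM between the transcription factor EGR1 (2.64) and the cyclin kinase inhibitor CDKN1A (2.51) in size.

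GEM was also higher on Ti-TMS-PEI in the 4 h arrays, which had no part in its choice, but it did not pass the test. Signals were 6.61, 7.37, 6.57 and 6.35 on Ti-Ref and 7.38, 7.51, 7.86 and 7.99 on Ti-TMS-PEI. Every coated array was above every uncoated array, but replicate B of Ti-Ref came within 0.01 of the lowest coated one. The difference was 0.96 (95% interval 0.46 to 1.46, adjusted p = 0.22 by limma). With a trended and robust variance the same difference had an adjusted p of 0.034. GEM, PDE4B and PDE4D were the 3 of 9 members whose surfaces did not overlap at 4 h, all higher on Ti-TMS-PEI, beside 5.77% of all transcript clusters. The same 3 had an unadjusted p under 0.05, beside 9.46% of all transcript clusters, and 0 of 9 members were called by limma at this time, while a trended and robust variance called 2 and a shared spread over 15 arrays called 1.

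**Figure D1:**
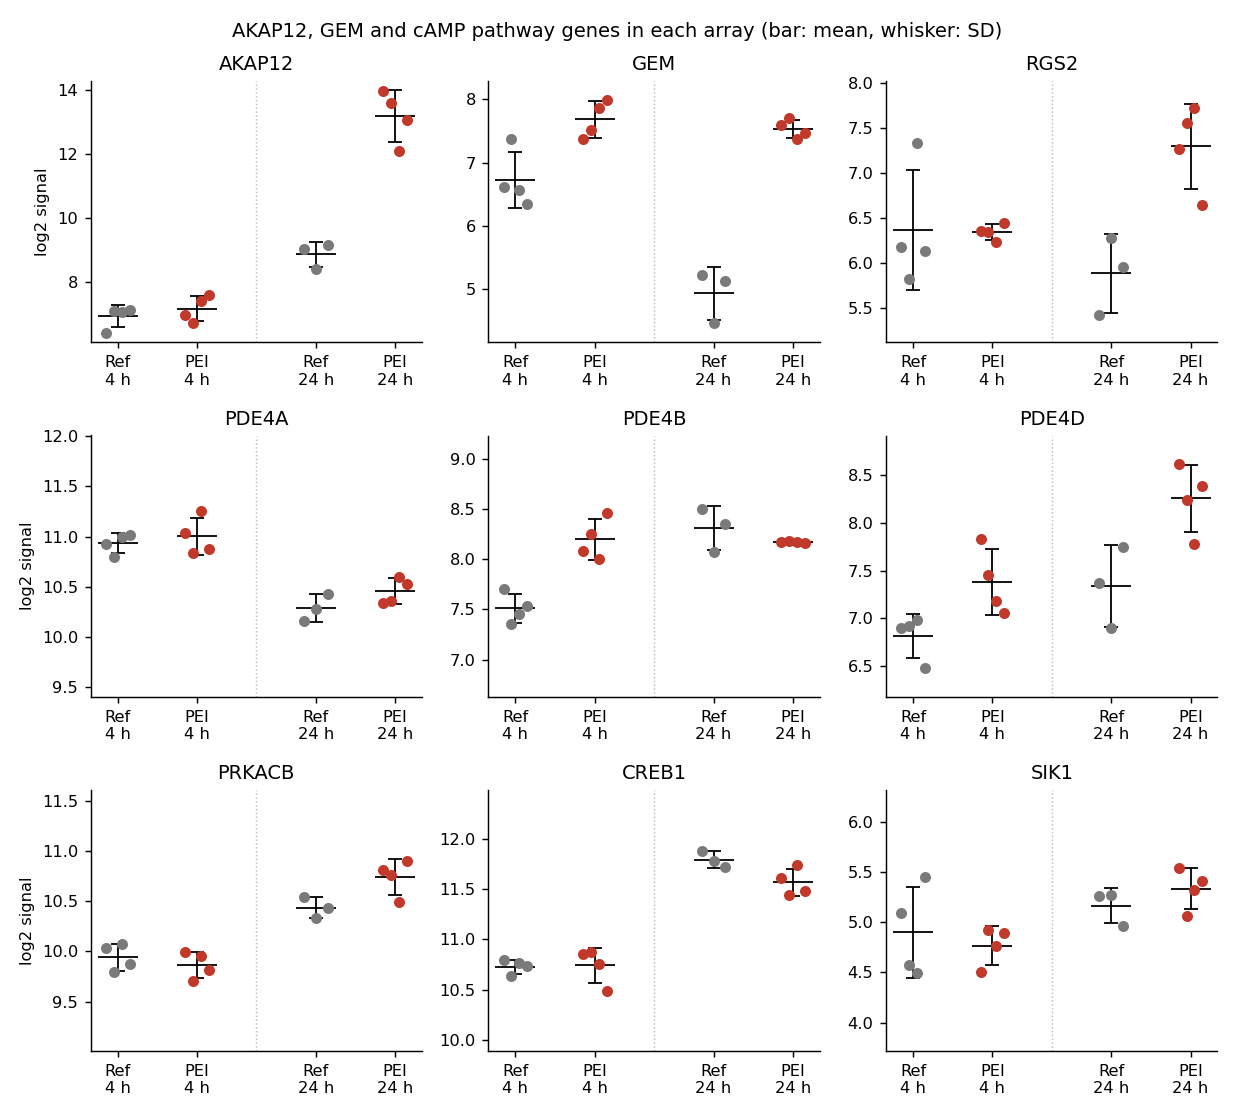
Log2 signal (vertical axis) of the 9 members in each array, with 1 point per array, the mean as a bar and the SD as a whisker. Grey points are Ti-Ref (Ref) and red points Ti-TMS-PEI (PEI), and times are set apart by a dotted line since their array medians differ. The 24 h arrays of AKAP12 and GEM lie 2.96 and 2.15 apart between surfaces, whereas PDE4B is apart only at 4 h.

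RGS2 and PDE4D were the members not chosen on the 24 h contrast that were called at that time, 2 of 7 and both higher on Ti-TMS-PEI. None of the 7 was called lower. Of all transcript clusters, 3.46% were called higher and 2.69% lower at 24 h. The same 2 of 7 had surfaces that did not overlap at 24 h, beside 23.5% of all transcript clusters, a share near the background.

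RGS2 speeds up the switching-off of G protein alpha subunits, mainly of the Gq class, and is induced by cAMP in many cells. Its signals at 24 h were 5.42, 6.28 and 5.96 on Ti-Ref and 7.27, 7.55, 7.72 and 6.64 on Ti-TMS-PEI. The lowest coated array, replicate D, was 0.36 above the highest uncoated one. The difference was 1.41 (95% interval 0.79 to 2.03, 2.65-fold, adjusted p = 0.016 by limma). Without replicate A of Ti-Ref the difference was 1.18 (adjusted p = 0.062), and without replicate B of Ti-TMS-PEI it was 1.32 (adjusted p = 0.0503). The call was lost in both fits, where the calls over all transcript clusters also fell, from 1319 to 851 and 916. At 4 h the difference was -0.02 (95% interval -0.63 to 0.60), with 6.18, 5.82, 7.33 and 6.13 on Ti-Ref and 6.36, 6.34, 6.24 and 6.45 on Ti-TMS-PEI. Replicate C of Ti-Ref was the highest of the 8 arrays of that time, and the surfaces overlapped. The difference between the times was 1.43 (95% interval 0.52 to 2.33, adjusted p = 0.065 by limma), which did not pass the test. It passed without replicate B of Ti-Ref at 4 h (1.61, adjusted p = 0.045) and without replicate D of Ti-TMS-PEI at 24 h (1.64, adjusted p = 0.030). It also passed with the dimmest 25% of transcript clusters removed (adjusted p = 0.049) and with a trended and robust variance (adjusted p = 0.019). The single RGS2 window held the core motif, found in 24.6% of all windows, 181 bases before the start. It is shown in capitals within chr1:192808839-192808898, plus strand.
RGS2: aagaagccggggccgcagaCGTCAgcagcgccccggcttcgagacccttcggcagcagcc

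Phosphodiesterases of the PDE4 family break down cAMP and not cGMP. PDE4B and PDE4D were higher on Ti-TMS-PEI in every array at 4 h without passing the test, PDE4D passed it at 24 h, and PDE4A differed at neither time by more than the spread. PDE4C, the remaining gene of the family, differed by -0.02 at 4 h and 0.18 at 24 h with no call.

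PDE4D had signals of 7.37, 6.90 and 7.75 on Ti-Ref and 8.61, 8.24, 7.78 and 8.38 on Ti-TMS-PEI at 24 h. Only 0.03 separated the highest uncoated array, replicate C, from the lowest coated one, also a replicate C. The difference was 0.91 (95% interval 0.38 to 1.44, 1.88-fold, adjusted p = 0.042 by limma). This call was lost without replicate A (0.93, adjusted p = 0.11) or B (0.69, adjusted p = 0.13) of Ti-Ref, and without replicate A (0.79, adjusted p = 0.099), B (0.92, adjusted p = 0.096) or D (0.87, adjusted p = 0.087) of Ti-TMS-PEI. At 4 h PDE4D had signals of 6.90, 6.92, 6.98 and 6.48 on Ti-Ref and 7.83, 7.45, 7.18 and 7.06 on Ti-TMS-PEI. Here too the surfaces did not overlap, and the difference was 0.56 (95% interval 0.15 to 0.97, adjusted p = 0.38). The effects at both times differed by 0.35 (95% interval -0.32 to 1.02, adjusted p = 0.61), so the size at 24 h was not told apart from that at 4 h. Of the 8 PDE4D windows, 1 held the core motif, 57 bases before its start, beside 24.6% of all windows. The stretch with the core, chr5:59587646-59587705 on the minus strand, has it in capitals.
PDE4D: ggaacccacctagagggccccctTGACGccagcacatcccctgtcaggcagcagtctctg

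PDE4B was higher on Ti-TMS-PEI in every array at 4 h but not at 24 h, and it was the tested member whose effect changed with time. At 4 h its signals were 7.70, 7.36, 7.45 and 7.53 on Ti-Ref and 8.08, 8.25, 8.0 and 8.46 on Ti-TMS-PEI. Every coated array was at least 0.30 above the uncoated arrays. The difference was 0.69 (95% interval 0.40 to 0.98, 1.61-fold), with an adjusted p of 0.14 by limma. With the spread shared over 15 arrays the adjusted p was 0.023, and with a trended and robust variance it was 0.034. At 24 h the signals were 8.50, 8.07 and 8.35 on Ti-Ref and 8.17, 8.18, 8.17 and 8.16 on Ti-TMS-PEI. The coated arrays were nearly equal and lay within the range of the uncoated ones, with a difference of -0.14 (95% interval -0.40 to 0.13, adjusted p = 0.53). The effect at 24 h minus that at 4 h was -0.82 (95% interval -1.20 to -0.45, adjusted p = 0.013 in limma's interaction test), and 1 of 7 tested members was called in this test, beside 4.78% of all transcript clusters. None of the 6 PDE4B windows held either motif.

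PDE4A ranged from 10.80 to 11.02 on Ti-Ref and from 10.84 to 11.25 on Ti-TMS-PEI at 4 h, and from 10.16 to 10.43 and 10.34 to 10.60 at 24 h. The surfaces overlapped at both times, and the differences were 0.06 (95% interval -0.20 to 0.33, adjusted p = 0.90) and 0.17 (95% interval -0.09 to 0.42, adjusted p = 0.42). In 1 of its 5 windows PDE4A held the whole palindrome TGACGTCA, beginning 3 bases before the start, and the core at 5 further places upstream. The 100 bases before this start, chr19:10416673-10416772 on the plus strand, are shown with the upstream cores in capitals as the window richest in matches among the measured members. The palindrome runs over the end of the stretch and is not in capitals.
PDE4A: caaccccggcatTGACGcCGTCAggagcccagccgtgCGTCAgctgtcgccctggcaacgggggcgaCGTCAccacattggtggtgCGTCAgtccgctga

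PRKACB, CREB1 and SIK1, the kinase, transcription factor and feedback kinase of the pathway, did not pass the test at either time. PRKACB, the beta catalytic subunit of PKA, had signals of 10.54, 10.33 and 10.43 on Ti-Ref and 10.81, 10.76, 10.49 and 10.90 on Ti-TMS-PEI at 24 h. Replicate C of Ti-TMS-PEI fell among the uncoated arrays, and the difference was 0.31 (95% interval 0.03 to 0.58, adjusted p = 0.16). At 4 h it was -0.08 (95% interval -0.33 to 0.18, adjusted p = 0.87). Of the 5 PRKACB windows, 1 held the core motif, 130 bases before its start, beside 24.6% of all windows.

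CREB1, which binds CREs once PKA has phosphorylated it, had signals of 11.88, 11.78 and 11.72 on Ti-Ref and 11.61, 11.44, 11.74 and 11.48 on Ti-TMS-PEI at 24 h. Replicate C of Ti-TMS-PEI was again the array that overlapped, and the difference was -0.23 (95% interval -0.47 to 0.02, adjusted p = 0.24). At 4 h the difference was 0.01 (95% interval -0.24 to 0.27, adjusted p = 0.98). These are RNA levels and do not measure phosphorylated CREB. The single CREB1 window held neither motif.

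SIK1, a kinase that is induced by cAMP in many cells and holds back the CREB coactivators, had signals from 4.49 to 5.45 over the 8 arrays of 4 h and from 4.96 to 5.54 over the 7 arrays of 24 h. Its differences were -0.13 (95% interval -0.60 to 0.34, adjusted p = 0.88) at 4 h and 0.17 (95% interval -0.14 to 0.48, adjusted p = 0.51) at 24 h, with overlapping arrays at both times. Its window held the core motif 3 times, at 217, 137 and 126 bases before the start. The nearest pair is shown in capitals within chr21:43427212-43427271 on the minus strand, as an example of a window with CRE cores in a gene that was not called.
SIK1: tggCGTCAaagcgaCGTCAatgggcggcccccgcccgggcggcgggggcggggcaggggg

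**Figure D2:**
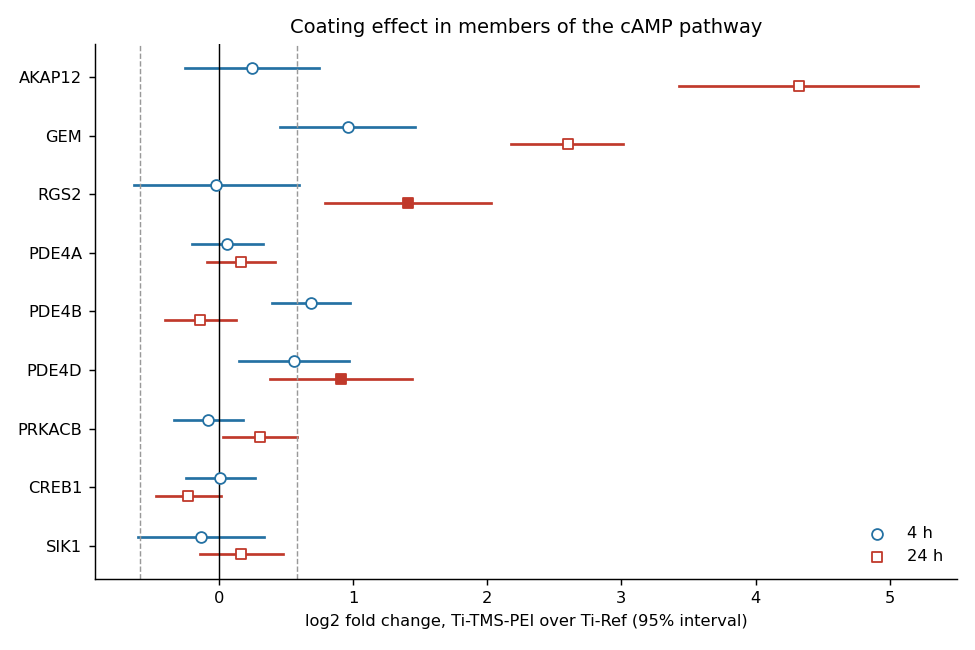
Difference in log2 signal, Ti-TMS-PEI minus Ti-Ref (horizontal axis), with its 95% interval for each member after 4 h (blue circles) and 24 h (red squares). Filled symbols were called, dashed lines mark 1.5-fold, and AKAP12 and GEM at 24 h are open because they were chosen on that contrast. RGS2 (1.41) and PDE4D (0.91) are filled at 24 h and no symbol is filled at 4 h.

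The replicates within Ti-TMS-PEI at 24 h differed in which members were lowest. Replicate C was the lowest coated array for 4 of the 9 members, AKAP12, GEM, PDE4D and PRKACB, and the highest for RGS2, PDE4A and CREB1. Replicate B of Ti-Ref was the lowest uncoated array for 5 of 9 members at 24 h, among them AKAP12 and GEM.

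Over the 15 arrays, with each gene centred on its mean within a time, the genes most like AKAP12 were SLC51B (Pearson r = 0.98), TNC (0.978), GPNMB (0.974), SLC6A6 (0.974) and TMEM63B (0.973). SLC51B is a subunit of a bile acid and steroid transporter, TNC is the matrix protein tenascin C, GPNMB is a membrane glycoprotein also called osteoactivin, SLC6A6 is the taurine transporter and TMEM63B is a membrane ion channel. Their differences at 24 h were smaller, from 0.79 for TMEM63B to 2.05 for SLC51B, and at 4 h they lay between 0.02 and 0.27. The genes most like GEM were MMP14 (0.968), MMP1 (0.965), SEMA6D (0.963), NR4A1 (0.963) and CCND1 (0.96), which are a membrane-bound and a secreted matrix metalloproteinase, a semaphorin, a nuclear receptor and cyclin D1. At 4 h these 5 differed by 0.22 to 1.07, the largest being MMP1, and at 24 h by 0.47 to 4.72. The points share arrays and surfaces, so these correlations describe mostly the gap between surfaces at 24 h, which also chose AKAP12 and GEM.

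**Figure D3:**
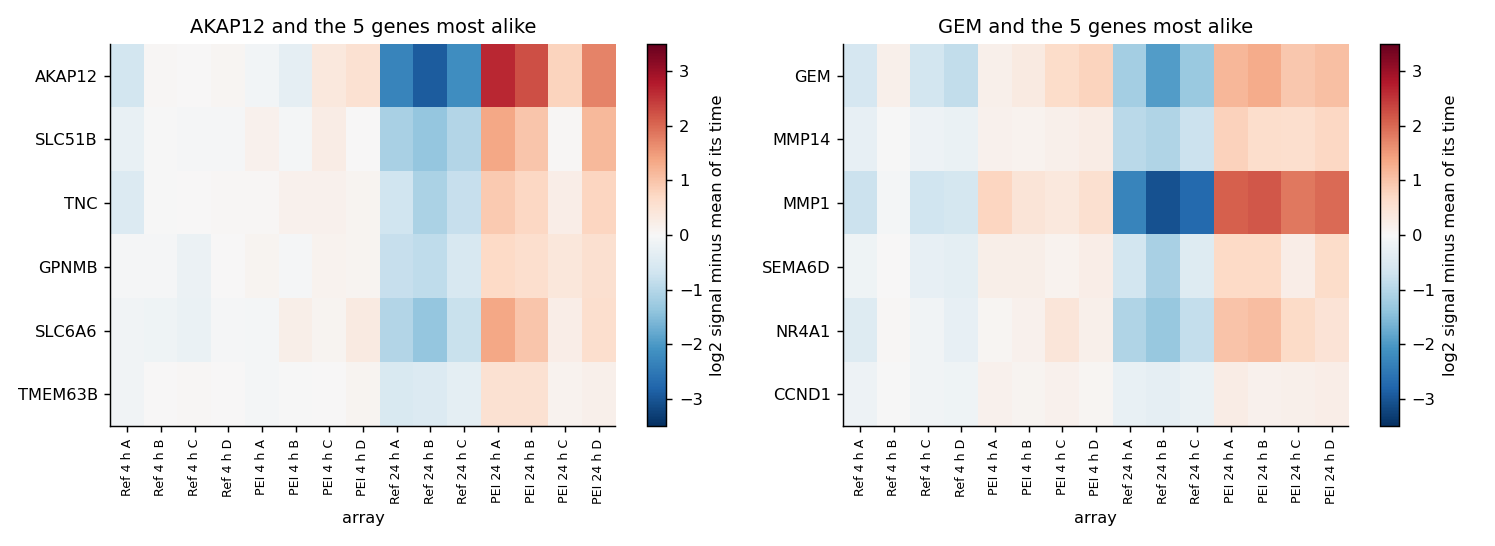
Log2 signal minus the mean of its time (colour) in each of the 15 arrays (columns) for AKAP12, GEM and the 5 genes most like each (rows). Red marks high and blue low signals; the AKAP12 block is nearly white at 4 h, whereas the GEM block already leans to red on Ti-TMS-PEI at 4 h for GEM (0.96) and MMP1 (1.07).

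The rest of the pathway was read from 12 lists with 145 genes beside the members, of which 130 were measured. At 24 h, 14 of these 130 genes (10.8%) were called higher on Ti-TMS-PEI and 4 (3.08%) lower, beside the 3.46% and 2.69% of all transcript clusters. Their median difference was 0.04, and that of all transcript clusters was 0.00. At 4 h, 2 of 130 (1.54%) were called higher and 0 lower, beside 0.0326% and 0.00932% of all transcript clusters. The median of the 130 genes was -0.04, and 21 of them had an unadjusted p under 0.05 by limma, beside 9.46% of all transcript clusters. These counts describe the lists and were not tested against other genes. The lists were chosen with earlier results of these data known, so a share above that of all transcript clusters is no evidence of an excess. Of the 14 genes called higher, 7 were cAMP-induced genes.

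**Figure D4:**
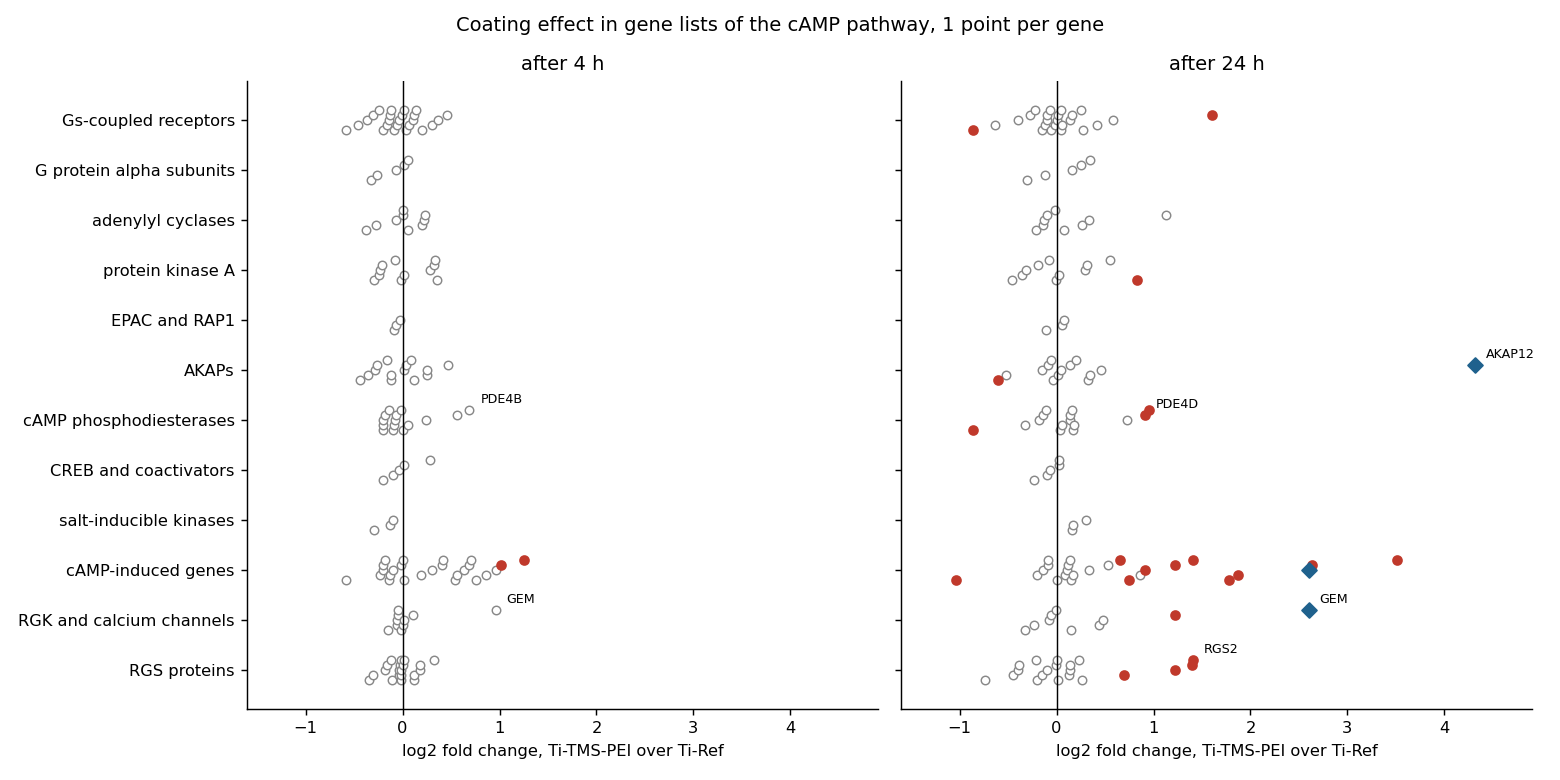
Difference in log2 signal, Ti-TMS-PEI minus Ti-Ref (horizontal axis), of every measured gene in 12 lists (rows) after 4 h and 24 h, with 1 point per gene. Red points were called, open points were not, and blue diamonds are AKAP12 and GEM, chosen on the 24 h contrast. AKAP12 (4.32) lies far from the other AKAPs, whose median is 0.02.

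At the start of the pathway, 2 of 24 measured receptors coupled to Gs were called at 24 h, in opposite directions. The share was 4.17% each way, near the 3.46% higher and 2.69% lower of all transcript clusters. CALCRL, the receptor of adrenomedullin and CGRP, had signals of 4.11, 4.64 and 3.62 on Ti-Ref and 5.59, 5.79, 5.57 and 5.94 on Ti-TMS-PEI, a difference of 1.60 ± 0.22 (SE, adjusted p = 0.0039). PTGER4, a prostaglandin E receptor, had 7.13, 7.38 and 7.31 on Ti-Ref and 6.32, 6.18, 6.79 and 6.35 on Ti-TMS-PEI, a difference of -0.86 ± 0.15 (SE, adjusted p = 0.010). Neither receptor overlapped between surfaces, and at 4 h their differences were -0.01 and 0.37 with no call. The change of the coating effect with time passed limma's interaction test for both, at 1.61 (adjusted p = 0.0075) and -1.23 (adjusted p = 0.010). CALCRL was dim on Ti-Ref at 24 h, where replicates A and C lay below the lower quartile of their arrays (4.33 and 4.34). Its signals at 4 h were 3.01 to 3.87, below the lower quartile in every array but replicate C of Ti-TMS-PEI. CRHR2 (-0.58, adjusted p = 0.27) and PTH1R (-0.46, adjusted p = 0.33), the receptors with the smallest p at 4 h, are receptors of urocortins and of parathyroid hormone. PTH1R ranged from 2.43 to 3.62 and lay below the lower quartile in all 15 arrays.

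G protein alpha subunits and adenylyl cyclases had no called gene at either time. GNAS, which encodes the Gs alpha subunit, differed by 0.25 at 24 h (adjusted p = 0.16), and GNAI1, an inhibitory alpha subunit, by 0.35 (adjusted p = 0.17). ADCY8, a calcium-stimulated cyclase, had the largest difference of the 9 cyclases measured, 1.13 (95% interval 0.33 to 1.93, adjusted p = 0.084), but its arrays overlapped. Its signals were 4.10, 5.15 and 4.15 on Ti-Ref, with replicates A and C below the lower quartile of their arrays (4.33 and 4.34). On Ti-TMS-PEI they were 6.19, 5.99, 4.86 and 5.34, and ADCY8 did not pass the test. It passed with the spread shared over 15 arrays (adjusted p = 0.038), with a trended and robust variance (adjusted p = 0.038) and without replicate C of Ti-TMS-PEI (1.37, adjusted p = 0.0399). ADCY9 differed by 0.33 (adjusted p = 0.077). At 4 h the smallest p among these genes belonged to GNAL (-0.33, adjusted p = 0.54), GNAI1 (-0.26, adjusted p = 0.56), ADCY1 (-0.38, adjusted p = 0.57) and ADCY4 (0.22, adjusted p = 0.61). ADCY4 lay below the lower quartile in every array of 4 h.

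Among 10 measured genes of PKA and its inhibitors other than PRKACB, only PKIG was called at 24 h. This was 10.0% called higher, beside 3.46% of all transcript clusters. PKIG, which binds and blocks the free catalytic subunits, had signals of 11.29, 11.00 and 11.10 on Ti-Ref and 11.99, 12.32, 11.70 and 11.83 on Ti-TMS-PEI, a difference of 0.83 ± 0.15 (SE, adjusted p = 0.013). Without replicate B of Ti-Ref its adjusted p was 0.056. PRKAR1A, a regulatory subunit, differed by 0.55 at 24 h with an adjusted p of 0.0093, just under the fold threshold. Its other transcript cluster gave 0.74 (adjusted p = 0.16), and at 4 h its clusters had opposite signs (0.36 and -0.79), so no direction is given for 4 h. PKIG at 4 h differed by 0.32 (adjusted p = 0.53). Among the 3 genes of the cAMP-gated exchange factors and RAP1, RAP1A (-0.11 at 24 h and -0.09 at 4 h), RAP1B (0.08 at 24 h) and RAPGEF3 (-0.07 at 4 h) differed by 0.11 or less with no call.

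Of the 13 measured AKAPs other than AKAP12, none was called higher and PALM2AKAP2 was called lower at 24 h. This was 7.69% called lower, beside 2.69% of all transcript clusters. PALM2AKAP2 differed by -0.60 (adjusted p = 0.0093) in its brightest transcript cluster, from 12.18 on Ti-Ref to 11.58 on Ti-TMS-PEI, but the other clusters of this gene gave -0.25 and -0.11 with no call. Its fold fell under the threshold without replicate B of Ti-Ref (-0.56) or replicate A or B of Ti-TMS-PEI (-0.57 each). AKAP8L, a nuclear AKAP, differed by -0.28 at 4 h (adjusted p = 0.37) and by 0.46 at 24 h (adjusted p = 0.024, under the fold threshold), and this change with time passed the test (0.75, adjusted p = 0.0030). AKAP14 differed by 0.47 at 4 h (adjusted p = 0.28), but it lay below the lower quartile in every array of that time.

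Of the 12 measured cAMP phosphodiesterases outside the PDE4 members, 1 was called higher and 1 lower at 24 h. The share was 8.33% each way, beside 3.46% higher and 2.69% lower of all transcript clusters. PDE7B, which is specific for cAMP, had signals of 8.61, 8.05 and 8.44 on Ti-Ref and 9.72, 9.33, 8.95 and 9.26 on Ti-TMS-PEI, a difference of 0.95 ± 0.19 (SE, adjusted p = 0.018). PDE1C, which is switched on by calcium and calmodulin, had 10.91, 11.12 and 11.04 on Ti-Ref and 10.40, 10.15, 10.23 and 9.89 on Ti-TMS-PEI, a difference of -0.86 ± 0.13 (SE, adjusted p = 0.0063). Both were free of overlap at 24 h. The adjusted p of PDE7B was 0.069 without replicate B of Ti-Ref, 0.051 without replicate C of Ti-Ref and 0.053 without replicate B of Ti-TMS-PEI. At 4 h they differed by -0.20 and -0.10 with no call, and the change with time passed the test for both (1.15, adjusted p = 0.0091, and -0.76, adjusted p = 0.016).

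Transcription factors and coactivators of the CREB family and the salt-inducible kinases had no called gene. CREBBP differed by -0.20 at 4 h (adjusted p = 0.62) and -0.10 at 24 h (adjusted p = 0.66), and CRTC3 by 0.28 at 4 h (adjusted p = 0.62). SIK2 differed by -0.10 at 4 h (adjusted p = 0.81) and 0.30 at 24 h (adjusted p = 0.23), and SIK3 by -0.29 at 4 h (adjusted p = 0.53).

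Genes that cAMP induces through CREB in many cell types held 8 of the 18 pathway genes called at 24 h. Outside the members, 20 of them were measured, with a median difference of 0.24 at 24 h. Of these 20, 7 (35.0%) were called higher and 1 (5.0%) lower, beside 3.46% and 2.69% of all transcript clusters. Most genes of this list are also induced by serum and growth factors, and the list does not single out cAMP. PTGS2 had signals of 9.85, 9.56 and 9.78 on Ti-Ref and 13.28, 13.43, 13.18 and 13.06 on Ti-TMS-PEI at 24 h, a difference of 3.51 ± 0.12 (SE, 11.4-fold, adjusted p = 6.2e-06). EGR1, an immediate early transcription factor, had 12.22, 12.97 and 12.87 on Ti-Ref and 15.38, 15.12, 15.16 and 15.66 on Ti-TMS-PEI, a difference of 2.64 ± 0.20 (SE, adjusted p = 0.00044). The nuclear receptor NR4A1 differed by 1.87 ± 0.17 (SE, adjusted p = 0.00091). NR4A2 (1.78), JUNB (1.22), FOS (0.75) and DUSP1 (0.65) were the other genes called higher, and BDNF, a neurotrophic factor, was called lower (-1.04, adjusted p = 0.0077).

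At 4 h, 2 of the 20 measured genes of this list outside the members (10.0%) were called, both higher. Of all transcript clusters, 0.0326% were called higher at that time. The study had already reported both genes at 4 h, and this list was chosen with earlier results known. The share is therefore a description and no evidence of an excess. DUSP1, a phosphatase that switches off MAP kinases, had signals of 11.88, 12.03, 12.18 and 12.02 on Ti-Ref and 13.01, 12.98, 13.09 and 13.11 on Ti-TMS-PEI, a difference of 1.02 ± 0.10 (SE, adjusted p = 0.024). NR4A2, a nuclear receptor, had 5.80, 6.04, 6.03 and 5.40 on Ti-Ref and 6.94, 6.91, 7.29 and 7.15 on Ti-TMS-PEI, a difference of 1.25 ± 0.16 (SE, adjusted p = 0.044). The surfaces lay 0.80 and 0.87 apart for them. Without 1 array the adjusted p of NR4A2 was 0.087 to 0.16 in all 8 cases, and that of DUSP1 was 0.030 without replicate C of Ti-Ref and 0.071 to 0.13 in the 7 other cases. Of the 20 genes, 7 were higher in every coated array at 4 h and 1 was lower, beside the 5.77% of all transcript clusters free of overlap in either direction. PTGS2 (0.86, adjusted p = 0.16) and EGR1 (0.76, adjusted p = 0.22) did not pass at 4 h, and their effects at 24 h exceeded those at 4 h by 2.65 (adjusted p = 2.9e-05) and 1.89 (adjusted p = 0.0017).

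**Figure D5:**
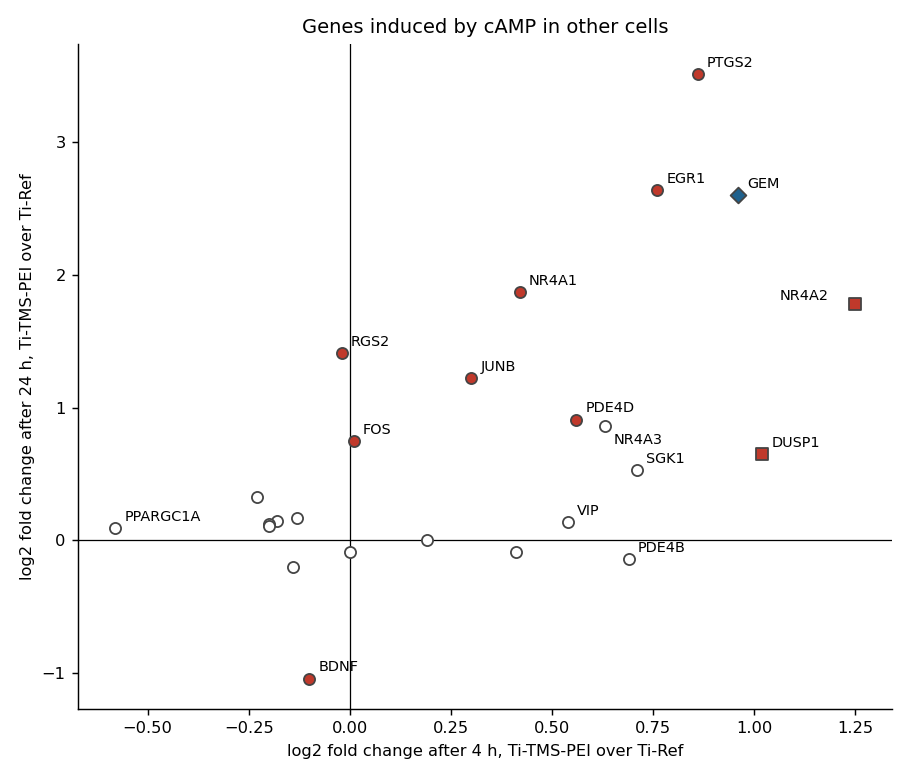
Difference in log2 signal, Ti-TMS-PEI minus Ti-Ref, after 4 h (horizontal axis) and after 24 h (vertical axis) for the 25 measured genes that cAMP induces in other cells, members included. Red symbols were called at 24 h, squares were also called at 4 h, open circles were called at neither time and the blue diamond is GEM. DUSP1 (1.02 and 0.65) and PDE4B (0.69 and -0.14) lie nearer the horizontal axis, PTGS2 (0.86 and 3.51) and EGR1 (0.76 and 2.64) at the top.

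Next to GEM, the list of RGK proteins and the calcium channel subunits they act on held 9 further measured genes, and RRAD was called. This was 11.1% called higher at 24 h, beside 3.46% of all transcript clusters. RRAD, another RGK protein, had signals of 3.86, 3.41 and 3.72 on Ti-Ref, where it lay below the lower quartile of the arrays, and of 4.69, 5.45, 4.99 and 4.39 on Ti-TMS-PEI. The difference was 1.22 ± 0.23 (SE, adjusted p = 0.014), and 1.09 (adjusted p = 0.060) without replicate B of Ti-Ref. REM1 (-0.23) and REM2 (-0.01), the other RGK genes, were not called at 24 h. CACNB3, a channel beta subunit, differed by 0.44 at 24 h (adjusted p = 0.037, under the fold threshold) and by -0.06 at 4 h.

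Of 19 measured RGS genes other than RGS2, 3 were called higher at 24 h, none lower, and none at 4 h. The share called higher at 24 h was 15.8%, beside 3.46% of all transcript clusters. RGS17 had signals of 6.98, 6.21 and 6.56 on Ti-Ref and 8.13, 7.96, 8.11 and 7.75 on Ti-TMS-PEI, a difference of 1.40 ± 0.18 (SE, adjusted p = 0.0032), close in size to that of RGS2. RGS9 differed by 1.22 ± 0.21 (SE, adjusted p = 0.010) and RGS3 by 0.70 ± 0.12 (SE, adjusted p = 0.011), both with no overlap. RGS9 was dim on Ti-Ref at 24 h (4.89, 4.80 and 4.37), where replicate C lay just above the lower quartile of its array (4.34). Its signals at 4 h were 2.69 to 3.89, below the lower quartile in every array but replicate C of Ti-TMS-PEI. At 4 h RGS17 differed by 0.00, and its change with time passed the test (1.40, adjusted p = 0.0023). The smallest p at 4 h belonged to RGS3 (0.32, adjusted p = 0.49) and RGS6 (-0.35, adjusted p = 0.57). RGS6 lay below the lower quartile in every array of that time.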

How the data were processed

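RNA of MG-63 cells was measured on 15 Clariom S arrays, 8 at 4 h and 7 at 24 h. The authors ran SST-RMA (background adjustment, signal space transformation, quantile normalization) in the Transcriptome Analysis Console 4.0 and deposited log2 values for 21448 transcript clusters. They excluded 1 further Ti-Ref array of 24 h because of its labelling controls. The array annotation pairs 17709 transcript clusters with 1 symbol, and 3739 are unnamed here. The genome build of the array design is not given in the sources used here.

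Values were used as deposited. Within each time, limma 3.58.1 in R 4.3.3 compared the surfaces with no further term, and 1 model of all 15 arrays tested the change of the effect with time. p values were adjusted over all transcript clusters. The study describes independent experiments and also speaks of technical replicates, so p values measure the spread between arrays, which may be partly technical. Members, gene lists and tests were chosen with earlier results of these data known. Named genes were the members, in each list up to 4 called genes with the smallest adjusted p (where none was called, up to 2 with the smallest p), the 5 genes most like AKAP12 and GEM, and their neighbours by size at 24 h. ADCY8 under alternatives, PDE4C, JUNB, FOS, BDNF, REM1, REM2 and the marker genes, were named after their values were seen. For genes with several transcript clusters, that with the highest mean was used. The fits were tested on simulated data. Alternatives were other variance models, weights, filters, scalings, thresholds, a replicate block and leaving out each array.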

Additional observations from a re-analysis of the deposited data

Results flagged for a closer look

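In groups of 4 arrays, a lone array was looked for in 135 groups of the members and named genes, and 6 were found, near the 1 in 20 that chance gives. Among the members these were AKAP12 on Ti-Ref at 4 h, where replicate A (6.42) lay apart from the other 3 (7.07 to 7.13), and PDE4D on Ti-Ref at 4 h, where replicate D (6.48) lay below the others (6.90 to 6.98). The remaining lone values were GNAL on Ti-TMS-PEI at 24 h (replicate A, 4.56), GNAS on Ti-TMS-PEI at 24 h (replicate B, 15.41), PDE7B on Ti-Ref at 4 h (replicate C, 8.0) and PKIG on Ti-TMS-PEI at 4 h (replicate B, 12.14). Groups of 3 arrays were not examined in this way.

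The coating effect differed between 24 h and 4 h by limma's interaction test, adjusted over all transcript clusters, for 1 of the 7 members tested and for 10 other named genes. The member was PDE4B (-0.82, adjusted p = 0.013). The effect was larger at 24 h for PTGS2 (2.65), EGR1 (1.89), CALCRL (1.61), NR4A1 (1.45, adjusted p = 0.0019), RGS17 (1.40), PDE7B (1.15) and AKAP8L (0.75). It was smaller, or lower, at 24 h for PTGER4 (-1.23), PDE1C (-0.76) and PALM2AKAP2 (-0.72, adjusted p = 0.020). For AKAP12 (4.07) and GEM (1.64) the difference was not tested, since the 24 h contrast chose them.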

How the results depend on the processing

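Every member has 1 transcript cluster, so the choice among several clusters gave no value. Members had 3 called results (RGS2 and PDE4D at 24 h, PDE4B for the change with time), which kept the call in 40 of 49 fits under the alternatives, lost it in 9 and reversed in none. The 20 tested results without a call gained one in 7 of 331 fits, and the sign changed in 10. The values of AKAP12 and GEM that were not tested kept their direction in 70 of 70 fits. Residuals of arrays with the same replicate letter correlated at -0.07 to 0.05, and those with different letters at -0.105 to 0.096. No pairing by letter was seen, but whether arrays with the same letter share an experiment cannot be told from so few arrays. With the letter as a replicate block, 0 transcript clusters were called at 4 h, 853 at 24 h and 578 for the change with time, against 9, 1319 and 1026. In the replicate block fit the pathway lists had 0 called genes at 4 h. The members called were 1 of 7 at 24 h (RGS2) and 0 for the change with time, where PDE4B had an adjusted p of 0.065. At 24 h this limma fit also lost the calls of PTGER4 (adjusted p = 0.051), PKIG (0.055), RGS3 (0.057), PALM2AKAP2 (0.066) and DUSP1 (0.069). At 4 h the count of 9 became 24 without the dimmest 25%, 15 with median centring, 5 with a second quantile normalization, 62 with a shared spread, 83 with a trended and robust variance, 0 at an adjusted p under 0.01, and 0 to 3 without 1 array. The 2 pathway genes called at 4 h became 1, 5 and 7 with the second quantile normalization, the shared spread and the trended variance, 0 at the strict threshold and 0 to 1 without 1 array. The 0 members called at 4 h became 1 with the shared spread and 2 with the trended variance. At 24 h the count was 2020 with no fold threshold and 581 at the strict threshold, which called 12 of the 22 pathway genes (members included) and 0 of the 2 members, and without 1 array it was 851 to 1370. Without 1 array, 0 to 2 members were called at 24 h. For the change with time, the strict threshold called 354 transcript clusters and 0 members. The dimmest 25% removed or a trended variance gave 2 members, and leaving out 1 array gave 681 to 1111 transcript clusters and 1 to 2 members. Arrays have no depth, and dim genes such as RRAD, PTH1R, CALCRL, ADCY8 and SIK1, and GEM on Ti-Ref at 24 h, are limited by signal over background. The same holds for RGS9, RGS6, AKAP14 and ADCY4.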
